A study of Mus musculus with 6 samples.

Results

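A titration of starting DNA was examined, in which the input of genomic DNA to VDJ-seq was 500 ng, then 1 µg, 2.5 µg and finally 5 µg. These are 4 of the 6 libraries of the study, chosen by their titles and ordered by amount, and all their sequences were used. The DNA came from the spleens of C57BL/6 mice, 12 weeks old, whose B cells had been enriched by magnetic depletion of other cells. No allele or treatment is given for any group. The other 2 libraries, Q5_vent and Q5_Q5, came from the same strain, age and cell preparation and bear names of polymerases. Each amount has 1 library, and the labels do not say whether the 4 amounts came from the same mouse, from several or from a pool. No difference between amounts therefore has a replicate check, and no p-value is given. Since DNA was sequenced, the labelled cell type could not be checked against expressed markers.

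A B cell builds its heavy-chain gene by joining a D gene segment to a J gene segment and then a V gene segment to the joined DJ, with bases trimmed and added at both joins. The resulting junction, the CDR3, is the most variable stretch of the antibody and serves as a name tag for the descendants of a cell. VDJ-seq reads these joins from DNA, so that joins that cannot encode a protein are seen beside productive ones, and each cell offers at most a pair of alleles whatever its level of expression. How many different joins are seen depends on how many genome copies enter the library, which is what a titration of DNA varies.

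A clone was defined here as the same first V gene, with the allele removed, the same first J gene and the same CDR3 bases. Clones that were found at all 4 amounts are shown by their CDR3, because the same bases recovered from separate libraries are what recapture counts. Capitals mark bases that lie between aligned segments, so that a run with no capitals is a join for which the aligner assigned every base to a segment. The 5 runs below are the clones with the most sequences over the 4 libraries.
Ighv2-6 with Ighd2-4 and Ighj1, not productive: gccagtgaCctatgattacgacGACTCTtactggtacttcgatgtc
Ighv1-36 with Ighd2-4 and Ighj4, productive: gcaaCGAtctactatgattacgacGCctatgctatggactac
Ighv12-3 with Ighd4-1 and Ighj4, productive: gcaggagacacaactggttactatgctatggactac
Ighv11-2 with Ighd2-5 and Ighj1, productive: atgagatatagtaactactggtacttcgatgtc
Ighv5-15 with no D call and Ighj4, productive: gcaagacaTGGGGGTTCtgctatggactac

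After the authors' removal of duplicates the libraries held, from the lowest to the highest amount, 8704, 17055, 56006 and 112320 sequences. All 6 libraries carry 1 run and lane name. Mean reads per sequence, read from the sequence names as an inference, were 13.6, 12.6, 7.82 and 10.3 in that order, and the rows present were 56.7% to 64.1% of the highest row number. Sequences whose primer tag is marked unclear made up 11.7% to 12.2%. Depth, read support and the share of rows kept thus differed along the titration and cannot be told apart from the amount of DNA. Intervals are 95% intervals for counting error alone, and reads copied by PCR are not independent molecules.

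Clones numbered 8615, 16844, 55192 and 110143 from the lowest to the highest amount. Nearly all of them were new at each step. Of the clones at 1 µg, 99.6% had not been seen at 500 ng, 99.5% of those at 2.5 µg had been seen at neither lower amount, and 99.1% of those at 5 µg had been seen at none of the 3 lower amounts. Over the 4 libraries together 189444 clones were found, of which 188269 were in 1 library, 1032 in 2, 111 in 3 and 32 in all 4.

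Recapture between neighbouring amounts was low, and at equal depth it differed little from step to step. At full depth, 65 clones of the 500 ng library were found again at 1 µg, 0.754% of its clones (interval 0.592 to 0.960). At the next step 169 clones of the 1 µg library were found at 2.5 µg, 1.00% (interval 0.864 to 1.17). At the last step 776 clones of the 2.5 µg library were found at 5 µg, 1.41% (interval 1.31 to 1.51). These percentages climb with the amount, but the second library of each step was also deeper.

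When both libraries of a step were thinned to 6000 sequences, the order turned around. The expected share of clones recaptured was then 0.392% from 500 ng to 1 µg (interval 0.303 to 0.5002), 0.315% from 1 µg to 2.5 µg (interval 0.269 to 0.366) and 0.302% from 2.5 µg to 5 µg (interval 0.281 to 0.324). In clones, that is 23.4, 18.8 and 18.02 shared. These intervals were scaled from the exact Poisson intervals of the clones shared at full depth. They do not measure the spread of a single draw of 6000 sequences, which is wider. The 3 intervals overlap, so that no step stood apart from the others by them. Pairs of amounts that are not neighbours gave like values, 0.354% for 500 ng and 2.5 µg, 0.325% for 500 ng and 5 µg and 0.306% for 1 µg and 5 µg.

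**Figure D1:**
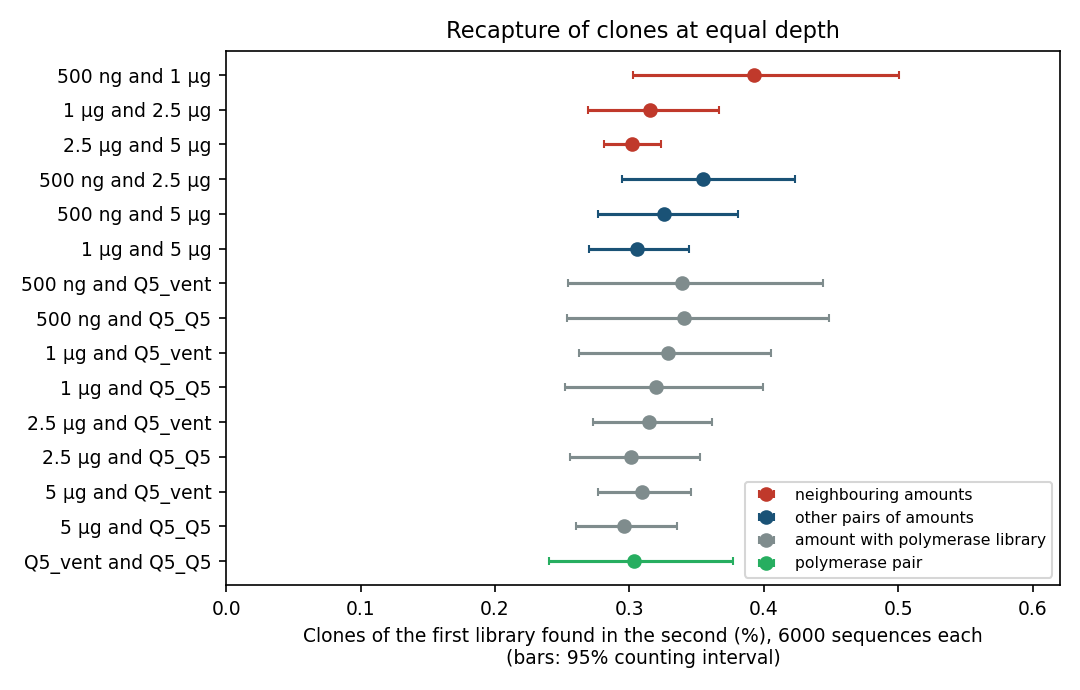
Percent of the first library's clones found in the second when both are thinned to 6000 sequences, for all 15 pairs of libraries. Points are exact expectations over thinning. Bars are 95% counting intervals, scaled from those of the clones shared at full depth. The 3 neighbouring steps lie at 0.392%, 0.315% and 0.302%, and pairs that join a titration library to a polymerase library lie between 0.296% and 0.341%.

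Between titration libraries and polymerase libraries it was 0.296% to 0.341% over 8 pairs, within or just below the range of the neighbouring steps. The share depended on how strictly a clone was defined. With the V family in place of the V gene, all 3 steps were higher. The first gave 0.477% (interval 0.379 to 0.592), within the interval of its main value. The last 2 steps rose to 0.419% (interval 0.370 to 0.472) and 0.401% (interval 0.379 to 0.424).

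Clones already repeated in the lower library were recaptured far more often than clones seen there once. For this count, sequences of a clone whose molecular identifiers differed by 1 base were first merged. This count and the shares by class in the next paragraphs are at full depth. Their change from step to step therefore cannot be told apart from depth. Of clones seen more than once at 500 ng, 17 of 25 were found at 1 µg (68.0%, interval 48.4 to 82.8), against 48 of 8590 seen once (0.559%, interval 0.422 to 0.740). At the middle step the counts were 31 of 52 (59.6%) against 138 of 16792 (0.822%), and at the last step 130 of 271 (48.0%) against 646 of 54921 (1.18%). Clones seen once nevertheless supplied most of the recapture, 73.8%, 81.7% and 83.2% of the recaptured clones.

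Recapture was highest for joins with no bases between the aligned segments, a number that measures how much a join carries beyond its germline parts. Clones with 0 such bases were 1.32% of the clones at 500 ng, and 10.5% of them were recaptured at 1 µg (interval 6.12 to 17.5). The share was 9.26% at the middle step (interval 6.07 to 13.9) and 9.05% at the last (interval 7.10 to 11.5). With 1 to 3 bases it was 1.62%, 1.66% and 2.08%, with 4 to 6 bases 0.767%, 0.832% and 1.36%, with 7 to 9 bases 0.480%, 0.760% and 1.12%, and with 10 or more bases 0.237%, 0.776% and 1.14%. From 7 bases on there was thus no further fall at the last 2 steps. At the first step the intervals of these 2 classes overlapped (0.275 to 0.836 and 0.109 to 0.515), on 12 and 6 recaptured clones. At each step the interval of the joins with 0 bases lay above that of the joins with 10 or more.

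Clones of Ighv11-2 and Ighv12-3, genes known for the phosphatidylcholine-binding receptors of B-1 cells, were recaptured at 13.7% (interval 8.36 to 21.7), 7.94% (interval 5.02 to 12.4) and 7.75% (interval 5.84 to 10.2) over the 3 steps. These intervals lie above those of all clones at each step. Ighv5-2, the V gene close to the D genes that is often joined but seldom productive, had 0 of 139 clones recaptured at the first step, which allows a share of up to 2.69% by the Wilson interval. It then had 5 of 276 (1.81%) and 31 of 953 (3.25%, interval 2.301 to 4.58). These shares too are at full depth, so that the rise along the steps cannot be told apart from depth. Recurrence of Ighv11-2 and Ighv12-3 joins was known from earlier results of these data and is not independent evidence.

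By J gene, Ighj1 clones had the highest recapture at each step, 1.59%, 1.64% and 1.95%, and Ighj3 clones the lowest, 0.248%, 0.632% and 1.11%. The intervals for these 2 J genes did not overlap at any step (1.08 to 2.34 against 0.106 to 0.580, 1.25 to 2.17 against 0.432 to 0.925, and 1.70 to 2.23 against 0.953 to 1.30). All shares in this paragraph are at full depth and are compared within a step only. The classes by J gene overlap with those by V gene. Recaptured clones of Ighj1 numbered 25, 49 and 204, and those of Ighv11-2 or Ighv12-3 numbered 14, 17 and 45. How many were in both classes was not counted. Productive clones were recaptured at 0.845%, 1.00% and 1.30%, and clones that were not productive at 0.513%, 1.01% and 1.69%. Their intervals overlapped at the first 2 steps. At the last step the productive clones lay lower (interval 1.20 to 1.42 against 1.497 to 1.91).

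Of the 32 clones found at all 4 amounts, 23 were productive (71.9%), against 73.4% of all 189444 clones. Joins with 0 bases between segments numbered 9 (28.1%, interval 15.6 to 45.4), against 1.15% of all clones, and Ighv11-2 or Ighv12-3 joins also 9 (28.1%), against 1.05%. Ighj1 was used by 14 (43.8%, interval 28.2 to 60.7), against 18.7%. These classes overlap and are not separate traits. Every Ighv11-2 clone among the 32 and most of the Ighv12-3 clones used Ighj1. Most clones of both V genes also had 0 bases between segments. Of these clones, 15 were also in both polymerase libraries. The Ighv2-6 clone at the head of the list had 8, 17, 52 and 101 sequences from the lowest to the highest amount, or 0.0919%, 0.0997%, 0.0928% and 0.0899% of the library. Its share was nearly the same at every amount, and all its intervals overlapped. It also had 20 sequences in Q5_vent and 19 in Q5_Q5. Calls naming 1 gene made up 88 of the 814 Ighv2-6 sequences over the 4 libraries, so that the V name of this clone is uncertain.

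The Ighv1-36 clone had 8, 17, 43 and 92 sequences, between 0.0768% and 0.0997%. The Ighv12-3 clone had 2, 10, 22 and 54, and the Ighv11-2 clone 2, 6, 25 and 46, so that both were near the counting floor at 500 ng. The Ighv5-15 clone departed from this pattern, with 8 sequences at 500 ng (0.0919%, interval 0.0466 to 0.181) against 12 at 2.5 µg (0.0214%, interval 0.0123 to 0.0375) and 34 at 5 µg (0.0303%, interval 0.0217 to 0.0423). Its interval at 500 ng lay above those at 2.5 µg and 5 µg and overlapped that at 1 µg, where it had 6 sequences. It was singled out after its values were seen.

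**Figure D2:**
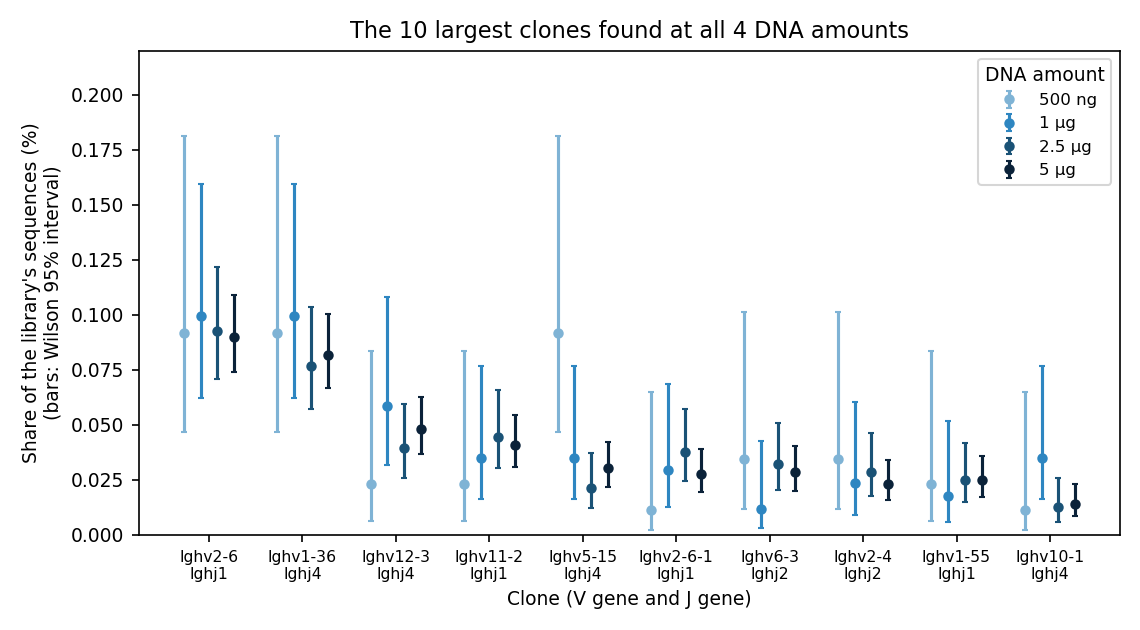
Share of each library's sequences taken by the 10 clones with the most sequences among those found at all 4 amounts; points are libraries and bars are Wilson 95% intervals. The Ighv2-6 clone stays between 0.0899% and 0.0997% at every amount, while the Ighv5-15 clone lies at 0.0919% at 500 ng and at 0.0214% at 2.5 µg. V names are the first gene of the call, and the name Ighv2-6 is uncertain.

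Repeats within a library depended on how molecular identifiers were read, while recapture between libraries moved little with it. Each sequence name carries a run of 12 bases, taken here as a molecular identifier, a random tag meant to mark 1 starting molecule. No header or label states this, and every merged value rests on it. Under this reading sequences of 1 clone with different identifiers are separate molecules. The example below, the pair with the most reads at 500 ng among clones seen there in 2 sequences, shows 2 sequences of 1 Ighv1-18 and Ighj1 clone with the same V start, 16 reads for the first and 13 for the second. Their identifiers differ at the base in capitals.
Identifier with more reads: cctgccttcAgt
Identifier with fewer reads: cctgccttcCgt

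Such pairs were found in every library. Merging the sequences of a clone whose identifiers were 1 base apart, with the same anchor and V start, removed 41 sequences at 500 ng (0.471%, interval 0.347 to 0.638) and 94 at 1 µg (0.551%, interval 0.451 to 0.674). It removed 224 at 2.5 µg (0.40%, interval 0.351 to 0.456) and 467 at 5 µg (0.416%, interval 0.380 to 0.455). The share removed per sequence thus had intervals that all overlap, those of 1 µg and 5 µg only just. Pairs 1 base apart were present in 41 of 65 repeated clones at 500 ng (63.1%), 93 of 143 at 1 µg (65.0%), 224 of 492 at 2.5 µg (45.5%) and 467 of 1324 at 5 µg (35.3%). This second share is lowered by depth, because clones still repeated after merging numbered 25, 52, 271 and 870.

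The paired sequences shared more than their clone. Of the 41, 95, 224 and 469 pairs 1 base apart, 41, 95, 224 and 468 had the same anchor and the same V start. Pairs of a clone with identifiers further apart shared the V start in 3.60% to 7.16% of cases and the anchor in 42.3% to 49.7%. Across libraries of the titration, 0 of 29093 pairs of sequences of a shared clone had identifiers within 1 base. Merging kept the sequence with more reads, so the one removed had fewer by rule; its reads against the rest of the library were on average 6.95, 6.24, 4.33 and 5.29 against 13.6, 12.7, 7.84 and 10.3.

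Merging moved the number of repeats at equal depth by much more than the number of sequences. At 6000 sequences, the expected number of clones seen more than once was 33.4, 24.7, 14.5 and 13.1 along the titration. After merging it was 14.1, 13.2, 12.0 and 11.8. Depth lowers the first set of values by construction, since thinning keeps both members of a pair with the square of the share drawn, and the deeper libraries were thinned more. That fall therefore cannot be told apart from depth. Recapture between libraries moved little on merging, to 0.394%, 0.315% and 0.302%.

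**Figure D3:**
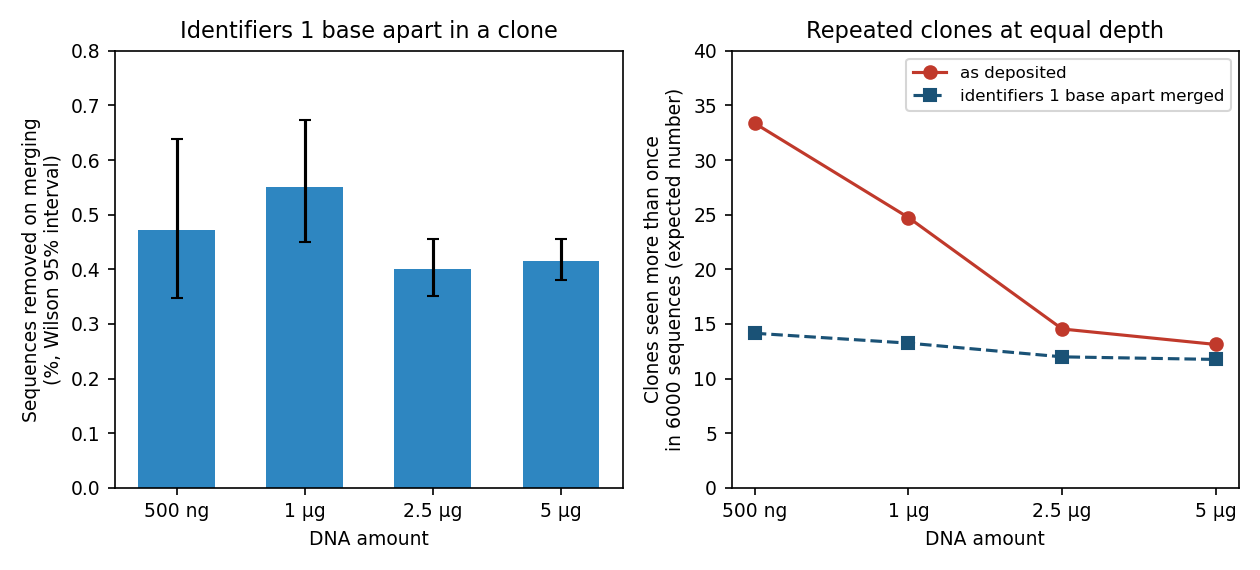
Left, percent of sequences removed when identifiers 1 base apart within a clone are merged, by amount of DNA, with Wilson 95% intervals; right, expected number of clones seen more than once in 6000 sequences, as deposited and after merging such identifiers. The share removed is 0.471%, 0.551%, 0.40% and 0.416%, and the number of repeats goes from 33.4 to 13.1 along the titration as deposited, where depth lowers it by construction, and from 14.1 to 11.8 after merging.

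The chance that 2 sequences drawn from 1 library are the same clone was 4.02, 3.73, 2.70 and 2.66 per 1000000 pairs as deposited, and 2.93, 2.997, 2.57 and 2.59 after merging. Depth lowers the values as deposited in the same way, since pairs 1 base apart grow with the sequences and all pairs with their square. Between 2 libraries of the titration it was 2.60 to 3.13 per 1000000 pairs over the 6 pairs. After merging, a match within a library was thus about as frequent as a match between libraries. Large clones carried most of the matches between libraries. At the 3 neighbouring steps the chance was 3.13, 2.87 and 2.60 per 1000000 pairs. Without clones of more than 5 sequences over the pair it was 0.571, 0.239 and 0.166. Leaving out high counts lowers the chance by construction, and a fixed count is a smaller share of a deeper pair. The fall of these 3 values along the steps therefore cannot be told apart from depth. Within each step, most of the chance of a match came from clones above that count.

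Repertoire size was estimated from recapture (Chapman's estimate) and from repeats within a library (Chao1, a lower bound). Chapman's estimate takes both libraries as even samples of 1 pool, which the labels do not state. It gave 2200000 clones from 500 ng and 1 µg (interval 1730000 to 2840000), 5470000 from 1 µg and 2.5 µg (interval 4710000 to 6390000) and 7820000 from 2.5 µg and 5 µg (interval 7290000 to 8400000). At 6000 sequences per library the same steps gave 1460000, 1800000 and 1880000 clones. Most of the apparent growth thus went with depth, and the estimate had not levelled off at the deepest step.

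Within libraries Chao1 was 618000, 1130000, 3540000 and 5310000 clones from the lowest to the highest amount. After merging of identifiers it was 1770000 (interval 1120000 to 2780000), 3930000 (interval 2810000 to 5520000), 7240000 (interval 6320000 to 8290000) and 8790000 (interval 8150000 to 9470000). At 6000 sequences the merged values were 1550000, 1870000, 2080000 and 2090000, with intervals that all overlap. Without merging they were 582000, 848000, 1600000 and 1800000, values that depth raises through the same thinning of pairs. An estimate that weights clones by their abundance, the reciprocal of the chance of a match, was 320000, 349000 and 384000 clones for the 3 steps, lower than each of the others.

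V gene segments supply the first part of the antibody's variable region, and rare ones are the part of the repertoire that depth decides first. The numbers of V genes found were 137, 154, 164 and 167, of 175 over the 4 libraries. At 6000 sequences they were 133.9 (upper limit of the SD over thinning 1.53), 139.0 (2.65), 134.1 (2.91) and 134.6 (2.87). This limit is smaller the less a library is thinned, and it does not measure the sampling error of the library itself. The library of 1 µg was highest and the others lay close together, so that no rise with the amount remained at equal depth.

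**Figure D4:**
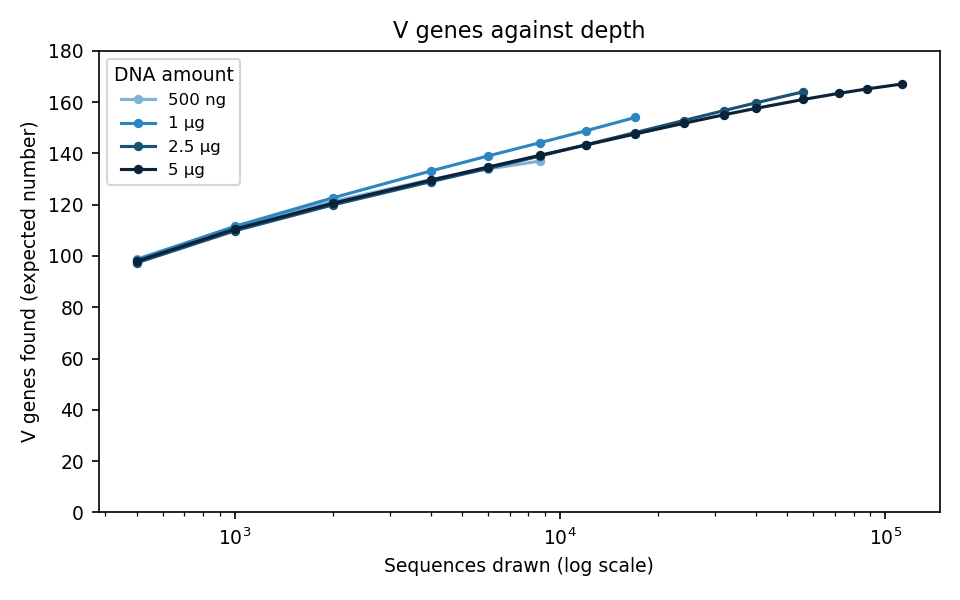
Expected number of V genes found against the number of sequences drawn, on a log scale, for each amount of DNA. The 4 curves lie close together, from 133.9 to 139.0 genes at 6000 sequences, and end at 137, 154, 164 and 167 genes.

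V genes gained numbered 18 from 500 ng to 1 µg, 17 from 1 µg to 2.5 µg and 8 from 2.5 µg to 5 µg, while 1, 7 and 5 were lost. Of those gained, 7, 7 and 3 had at least 2 sequences. At each step most of the gained names were absent from RefSeq, which held 135 of the 175 names over the 4 libraries. Many gains are thus names given by the aligner that could not be placed in the locus. For a gene with no sequence the share may still reach 0.0345% at 500 ng, 0.0176% at 1 µg or 0.00536% at 2.5 µg (3 counts of the total), and 0 gained genes exceeded that limit at the higher amount. Thinned to the lower library's depth, the higher library alone gave 144.2, 148.1 and 161.0 genes, against 137, 154 and 164 found in the lower one.

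Ighv1-28, which RefSeq annotates as a pseudogene (chromosome 12, 114809421 to 114809714 in GRCm38), led the first step with 0 sequences at 500 ng and 4, 10 and 29 at the higher amounts. Ighv2-6-4 and Ighv5-9-4 followed with 3 sequences each at 1 µg. At the middle step Ighv2-6-6 went from 0 to 6 sequences and Ighv5-12-4 (113762251 to 113762544) from 0 to 5, the latter with 1 sequence already at 500 ng. Ighv12-2, a pseudogene (114127533 to 114127984), had 0, 0, 3 and 9 sequences along the titration. At the last step Ighv1s16 had 5 sequences at 5 µg after 0 at 2.5 µg and 1 at 1 µg, and Ighv1-8, a pseudogene, and Ighv16-1 had 2 each. A gene missing at 1 amount could thus be present at a lower one.

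There were 43 V genes with fewer than 20 sequences over the 4 libraries, and together they had 286 sequences. Of these sequences 36.7% were productive, against 73.3% over all. RefSeq held 14 of the 43 names, 7 of them as pseudogenes. Of the 132 other V genes it held 121, 15 of them as pseudogenes, so that the rare set consists mainly of names without a RefSeq entry. The most frequent was Ighv1s15, with 2, 5, 5 and 7 sequences, 15 of its 19 productive. Ighv1s56 had 0, 2, 9 and 7 sequences, 0 of its 18 productive, and Ighv5-9-4 had 0, 3, 2 and 12, with 16 of 17 productive. Calls naming 1 gene made up 83.2% of the rare genes' sequences and 88.9% of all, and for near-identical genes such as Ighv2-3-1 (4 of 17) the name is uncertain.

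V genes were compared where both libraries together held at least 100 of their sequences, which left 78, 101 and 110 genes at the 3 steps. A gene was called when its share differed by at least 1.5-fold and the interval of the ratio excluded 1. The count was 0 at the first step (0% of those compared), 2 at the middle step (1.98%) and 0 at the last (0%). Without the fold threshold 3 (3.85%), 6 (5.94%) and 10 (9.09%) had an interval that excluded 1, where 5% are outside by the construction of the interval. The neighbouring steps share a library, so that their values are not independent.

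Both called genes are in the distal Ighv1 family. Ighv1-27, annotated as a pseudogene (114804616 to 114804909) and with 0 of its 303 sequences productive, had 11, 20, 110 and 162 sequences, or 0.126%, 0.117%, 0.196% and 0.144%. Its log2 ratio was 0.74 at the middle step (interval 0.06 to 1.43) and -0.45 at the last (interval -0.79 to -0.10), so that the 2.5 µg library was high and its neighbours low. Ighv1-34 (114851190 to 114851483) had 11, 38, 83 and 168 sequences, or 0.126%, 0.223%, 0.148% and 0.150%. Its log2 ratio at the middle step was -0.59 (interval -1.14 to -0.03), and here the 1 µg library was the high one. With productive sequences only, Ighv1-27 drops out and Ighv1-34 kept its size, with a log2 ratio of -0.59 and an interval (-1.20 to 0.02) that no longer excludes no change.

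The most used V genes held their shares along the titration. Ighv1-26 (114788372 to 114788665) had 5.18%, 5.12%, 4.98% and 5.16%. Ighv3-6 (114288152 to 114288447) had 2.86%, 2.85%, 3.13% and 3.18%, Ighv1-64 (115507587 to 115507977) lay between 2.87% and 2.93%, and Ighv1-18 (114682632 to 114682925) between 2.49% and 2.67%. For these 4 genes the interval of the ratio included 1 at each step. Ighv1-50 (115119748 to 115120041) had 2.72%, 2.54%, 2.34% and 2.55%, and its interval excluded 1 at the last step (ratio 1.09, interval 1.02 to 1.16). Calls naming 1 gene made up 1885 of the 4848 Ighv1-50 sequences and 7342 of the 9904 of Ighv1-26. The shares of these genes thus rest in part on calls that name several genes.

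Ighv11-2 (114048241 to 114048704) had 0.425%, 0.487%, 0.382% and 0.442%. Ighv12-3 (114366526 to 114366819) had 0.850%, 0.891%, 0.827% and 0.848%, and Ighv5-2 (113578504 to 113578990) had 1.61%, 1.62%, 1.73% and 1.70%. For all 3 the interval included 1 at each step.

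J gene segments close the variable region and lie together downstream of the D genes, from Ighj1 (chromosome 12, 113429781 to 113429833), the nearest to them, to Ighj4 (113428514 to 113428567). Ighj2 had 30.9%, 30.1%, 29.3% and 28.3% of sequences from the lowest to the highest amount, and was the one J gene whose share fell at each step. Ighj3 had 23.3%, 24.3%, 25.1% and 25.5%, Ighj4 27.5%, 27.7%, 26.4% and 27.1%, and Ighj1 18.3%, 17.8%, 19.2% and 19.1%.

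By the interval of the difference, 0 of 4 J genes differed at the first step (0%), 4 at the middle step (100%) and 2 at the last (50%). From 1 µg to 2.5 µg, Ighj1 was 1.37 percentage points higher (interval 0.71 to 2.03), Ighj3 0.76 points higher (interval 0.02 to 1.497), Ighj4 lower with a difference of -1.31 points (interval -2.07 to -0.54) and Ighj2 with one of -0.82 points (interval -1.61 to -0.04). From 2.5 µg to 5 µg, Ighj2 differed by -0.99 points (interval -1.45 to -0.53) and Ighj4 by 0.72 points (interval 0.27 to 1.17). Ighj4 thus moved down at one step and up at the next.

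Unclear primer tags moved with the J shares. Among sequences with an unclear tag, Ighj2 made up 69.0%, 67.0%, 66.2% and 62.6% and Ighj1 0.659% to 0.940%. Without these sequences Ighj2 had 25.6%, 25.0%, 24.4% and 23.8%, and 2 J genes differed at the middle step, Ighj1 by 1.47 points (interval 0.74 to 2.21) and Ighj4 by -1.42 points (interval -2.26 to -0.57). Ighj2 then differed by -0.66 points (interval -1.45 to 0.13) and Ighj3 by 0.60 points (interval -0.18 to 1.38), differences not much smaller than before. At the last step Ighj2 differed by -0.57 points (interval -1.04 to -0.11) and Ighj4 by 0.60 points (interval 0.11 to 1.10) without them. Whether the primers or the amount of DNA lie behind the J differences was not tested.

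D gene segments sit between the V and J clusters and form the middle of the CDR3. One gene of each of the 4 larger families is shown, because the pairing results below are given by family, written as read in full-length alignments of these sequences.
Ighd1-1 (DFL16 family): tttattactacggtagtagctac
Ighd2-3 (DSP2 family): tctatgatggttactac
Ighd3-2 (DST4 family): agacagctcaggctac
Ighd4-1 (DQ52): ctaactgggac

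DFL16 and DSP2 dominated at every amount. DFL16 had 42.7%, 42.04%, 41.9% and 42.1% of sequences with a D call and DSP2 44.1%, 43.8%, 44.4% and 44.4%. DQ52, the D gene next to the J genes (113430528 to 113430538), had 6.35%, 6.65%, 6.58% and 6.35%, and DST4 5.99%, 6.48%, 6.13% and 6.17%. The families Ighd5 and Ighd6 had at most 0.459% and 0.616%. Among single D genes Ighd1-1 (113482170 to 113482192) made up 41.1%, 40.4%, 40.3% and 40.6% of sequences with a D call, and Ighd2-4 was next at 13.7%, 13.2%, 13.3% and 13.3%.

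Few D genes differed between neighbours. Among 15, 18 and 22 D genes compared, 1 (6.67%), 1 (5.56%) and 2 (9.09%) had an interval that excluded 0. Ighd2-2 differed by -0.59 points at the first step and by 0.37 points at the middle step, having 4.35%, 3.76%, 4.13% and 4.18%. At the last step Ighd2-1 differed by 0.33 points and Ighd2-5 by -0.38 points. Calls that name several D genes made up 41.87% to 41.99%, and members of a family are near-identical, so that these names are uncertain.

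D families and J genes were not paired at random, and the pattern was shared by all 4 libraries. DFL16, whose main gene lies far from the J genes, was joined to Ighj1 1.28, 1.33, 1.34 and 1.36 times as often as the products of the 2 shares give, and to Ighj3 0.779, 0.747, 0.760 and 0.777 times as often. DSP2 showed the opposite order, 0.792, 0.796, 0.792 and 0.769 for Ighj1 and 1.21, 1.23, 1.20 and 1.19 for Ighj3. DST4 with Ighj1 was the lowest of the 24 pairs in each library, with 53, 82, 264 and 482 such sequences, 0.584, 0.438, 0.421 and 0.384 times the expected number. DQ52 was joined to Ighj2 1.25, 1.29, 1.30 and 1.28 times as often.

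**Figure D5:**
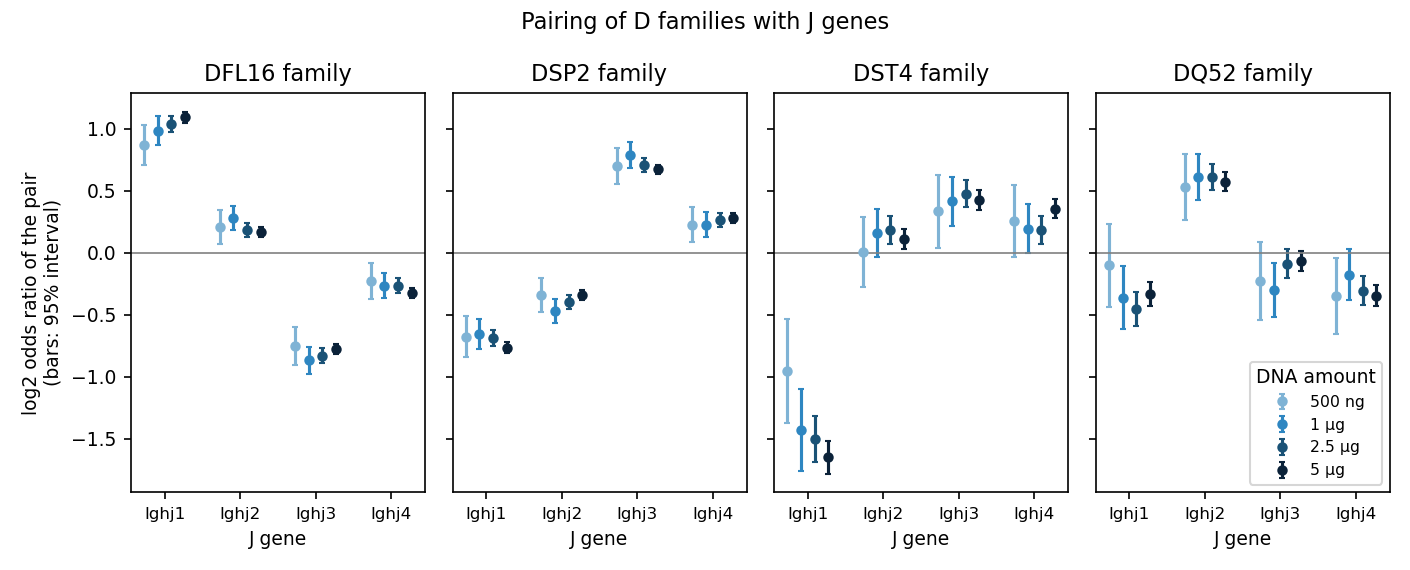
Log2 odds ratio of each D family with each J gene, by amount of DNA; bars are 95% intervals and 0 means no preference. DFL16 with Ighj1 lies between 0.87 and 1.09 at every amount and DST4 with Ighj1 between -1.65 and -0.95.

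For 11 of the 24 pairs the interval of the odds ratio lay on the same side of 1 in all 4 libraries. The strength of pairing over the whole table, Cramér's V (0 for no association, 1 for a complete one), was 0.0914 at 500 ng (interval 0.0789 to 0.104), 0.108 at 1 µg (interval 0.0987 to 0.117), 0.108 at 2.5 µg (interval 0.103 to 0.113) and 0.110 at 5 µg (interval 0.106 to 0.113). The 500 ng library was lowest, and its interval lay below that of the 5 µg library and overlapped the other two. In sequences that are not productive, which encode no heavy chain, it was 0.0803, 0.0950, 0.102 and 0.0953.

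Shares of pairs differed where J shares differed. Of 24 pairs, 0 (0%), 4 (16.7%) and 5 (20.8%) had an interval of the share difference that excluded 0. The largest at the middle step was DFL16 with Ighj1, from 10.03% to 10.8%, and the largest at the last step DFL16 with Ighj2, from 13.1% to 12.6%. When the preference itself was compared, as the change in log2 odds ratio, the counts were 0 (0%), 0 (0%) and 1 (4.17%). With calls naming 1 D gene they were 3 (12.5%), 2 (8.33%) and 2 (8.33%), among them DFL16 with Ighj1 at the first step (change 0.45, interval 0.17 to 0.73) and DST4 with Ighj4 at the last (change 0.22, interval 0.05 to 0.39). Over all calls the 1 pair was DST4 with Ighj4, whose log2 odds ratio was 0.18 at 2.5 µg and 0.36 at 5 µg (difference 0.17, interval 0.03 to 0.31).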

How the data were processed

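Per the labels' protocols, DNA was extracted with a column kit and libraries followed VDJ-seq. Bowtie2 2.3.2, Trim Galore 0.4.4 and the build mm10 (GRCm38) are named in the submitters' processing notes. Neither the V(D)J caller's version nor the filter behind missing row numbers was found there: not given in the sources used here. The deposited tables hold 1 row per sequence, and the other columns used, per the file headers, are positions and lengths in bases that the authors deposited.

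Sequences were counted by the first V, D and J gene of a call, and sequences without a CDR3 (0 to 10 per library) had no clone. Thinning used exact expectations. Intervals were Wilson for shares, Katz for ratios, Woolf for odds ratios, normal for differences and exact Poisson for shared clones. These scripts were tested on simulated data. V genes named are the 5 most used, Ighv11-2, Ighv12-3, Ighv5-2, those called, and the most frequent of the gained and rare ones; up to 10 clones at all 4 amounts were named likewise. Members and lists were chosen with earlier results of these data known. Merging of identifiers and the alternatives for odds ratios were chosen after seeing the data. RefSeq (GRCm38.p6) held 135 of 176 V names and 12 of 22 D names. Tools were SciPy 1.17.1, NumPy 2.4.6, pandas 2.3.3 and matplotlib 3.10.9 under Python 3.11.15.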

Additional observations from a re-analysis of the deposited data

How the results depend on the processing

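No paired analysis was possible because each amount has 1 library, and for the same reason no replicate could be left out. Depth limits recapture at 500 ng, where 65 shared clones carry the value, and calls of V genes with few sequences. Of 136 alternatives to the main comparisons, 74 left the value in place and 62 moved it; of 41 for single genes, 33 kept their side of the threshold, 6 lost it, 2 gained it and 0 turned direction. Alternatives to the main comparisons that are not listed here stayed within the main interval or, for counts, within 1.5-fold. For recapture at equal depth, the V family gave 0.477%, 0.419% and 0.401% for the 3 steps. At the last step CDR3 amino acids gave 0.337% and the depth of the smallest library 0.340%. Chapman's estimate (clones) with productive sequences only was 1430000, 4090000 and 6270000 for the 3 steps, at 6000 sequences 1460000, 1800000 and 1880000, and as the reciprocal of the match chance 320000, 349000 and 384000. With the V family it was 1740000, 3500000 and 4810000 for the 3 steps, and without unclear tags 4680000 and 6880000 for the last 2. At the last step it was 6380000 with amino acids, 6910000 with single V calls and 6980000 with at least 5 reads. Chao1 for 500 ng, 1 µg, 2.5 µg and 5 µg was 1770000, 3930000, 7240000 and 8790000 with identifiers merged and 1550000, 1870000, 2080000 and 2090000 when also thinned; thinning alone gave 848000, 1600000 and 1800000 for the last 3. With the V family it was 2700000 and 3900000 for the last 2, and with at least 5 reads 3990000 at 2.5 µg. V genes called without the fold threshold numbered 3, 6 and 10, with 1 count per clone 1 and 1 at the first 2 steps, and with productive sequences 0 at the middle step. V genes gained with at least 2 sequences numbered 7, 7 and 3, and V genes at the depth of the smallest library 137 at 500 ng and 144.2 at 1 µg. Without unclear tags 2 J genes differed at the middle step and 2 D and J pairs at the last. With productive sequences 1 pair differed at the first step and 2 at the last, and with 1 D gene in the call 2 at the first. Pairs whose odds ratio differed numbered 3, 2 and 2 with 1 D gene in the call, 1 and 2 at the last 2 steps with productive sequences, and 1 at the first step with sequences that are not productive. Cramér's V was 0.0779 at 500 ng with 1 D gene in the call, 0.115 at 2.5 µg and 0.118 at 5 µg without unclear tags, and 0.0950, 0.102 and 0.0953 at the 3 higher amounts for sequences that are not productive. The alternatives that merge identifiers, and those for odds ratios, were chosen after seeing the data. Beyond what fewer sequences or a wider clone definition do by construction, the cause of these shifts was not tested.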

Other observations

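The 2 polymerase libraries give a further measure of identifiers 1 base apart. Merging them removed 71 sequences of Q5_vent (0.364%, interval 0.289 to 0.459) and 5 of Q5_Q5 (0.0333%, interval 0.0142 to 0.0778). The interval of Q5_Q5 lay below those of all 4 titration libraries and of Q5_vent, and its depth, 15034 sequences, lay between those at 500 ng and 1 µg. Q5_Q5 also differed in read support. Its lowest number of reads per sequence was 4, against 3 in every other library. At least 5 reads were held by 96.8% of its sequences, against 77.6% to 91.8% in the others. Unclear primer tags were also lowest in Q5_Q5, at 8.21%. The labels name no polymerase for the titration libraries, and the parts of the polymerase and of read support in these shares were not tested.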
